A study of Homo sapiens with 12 samples.

Results

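The EJC-independent reporter library was measured with and without inhibition of SMG1 across 10-base sequence contexts. The members were taken as every variant in the authors' deposited comparison for that reporter, 41955 of 93261 variants in the series. The remaining 51306 variants belong to a companion library, the EJC-enhanced reporter. All libraries came from HEK293T, a human embryonic kidney cell line, labelled wild type apart from the reporter library integrated at a single genomic site by Cre-Lox recombination. One group of 3 libraries carried the EJC-independent reporter and received DMSO, the vehicle, and the other group of 3 carried the same reporter and received 0.5 µM SMG1i, the SMG1 inhibitor, both for 24 hours before harvest of total RNA. The EJC-enhanced reporter was handled in the same way, with 3 DMSO and 3 SMG1i libraries. The question behind the design, as the series states it, is whether the bases flanking a premature stop codon affect nonsense-mediated decay. Whether the replicates were separate cultures is not stated in the labels, and no value per library was used here, so the errors below are those of the deposited comparison or of the spread between sequences. The p-values of codons, combinations, pairs, positions and reporter differences hold only the spread between sequences measured in the same libraries, and no spread between libraries.

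Nonsense-mediated mRNA decay (NMD) removes mRNAs on which a ribosome terminates at a premature stop codon. SMG1 is the kinase that phosphorylates the helicase UPF1, a step that commits the mRNA to decay, so an SMG1 inhibitor raises the level of NMD targets. An exon junction complex (EJC), a protein assembly left on mRNA by splicing, stimulates NMD when it lies downstream of the stop codon. A target that is degraded without such a downstream complex is called EJC-independent. At termination the release factor eRF1 reads the stop codon in the ribosomal A site, while the last sense codon and its tRNA, still bound to the nascent peptide, occupy the P site. Release is the hydrolysis of that peptidyl-tRNA bond, and the last amino acid is the one attached to it.

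Each variant is a window of 10 bases with 6 random bases, a stop codon or the tryptophan codon TGG as the control without a stop, and the next base. The first 3 random bases are the penultimate codon and the other 3 are the last codon. Windows of the codon pairs with the highest and the lowest mean, among pairs with 8 or more stop variants, are shown first. The stop codon or TGG is in capitals.
histidine-glycine before TAA: catggcTAAc
histidine-glycine before TAG: catggcTAGc
histidine-glycine before TGA: catggcTGAc
histidine-glycine before TGG: catggcTGGc
arginine-tryptophan before TAG: cgatggTAGg
arginine-tryptophan before TGA: cgatggTGAt
The response of a variant is its log2 ratio of RNA under SMG1i to RNA under DMSO, so that a positive response is read as more RNA under the inhibitor. The authors' deposited table does not state the numerator, and every sign below would turn if it were the other treatment. In the authors' deposited table the response of catggcTAAc was 2.34 ± 0.21 (SE), that of catggcTAGc 2.38 ± 0.24 and that of catggcTGAc 2.16 ± 0.35. The same authors' deposited table gave catggcTGGc, which has no stop codon, 0.70 ± 0.39 (adjusted p = 0.105). In the authors' deposited table cgatggTAGg responded by 1.24 ± 0.25 and cgatggTGAt by 1.05 ± 0.49. The histidine-glycine windows with a stop codon thus stood above their TGG window and above both arginine-tryptophan windows by point estimate, with intervals that differ widely in width. The order against arginine-tryptophan follows from the choice of these pairs by their means.

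Single variants whose mean normalized count over the 6 libraries reached 100 show how far contexts spread. The 6 highest are given for the sequences that carried the largest measured responses.
serine-proline: tcgccgTAGg
tyrosine-glycine: tacgggTGAc
threonine-glycine: accggcTAGg
proline-glutamate: cccgagTGAg
valine-alanine: gttgccTGAg
valine-threonine: gtaactTGAt
In the authors' deposited table these 6 responses ran from 3.84 for gtaactTGAt, a 14.4-fold ratio, to 4.21 for tcgccgTAGg, an 18.5-fold ratio, with standard errors between 0.44 and 0.56. Glycine was the last residue in 2 of the 6, and in 1292 of the 28964 stop variants whose mean count was at least 10. The 6 lowest variants at that depth are printed next because they hold stop codons and still had a response near 0.
alanine-valine: gcagtcTAAc
tyrosine-proline: taccctTAGa
leucine-alanine: ttggctTGAg
serine-glycine: tctggtTAAg
serine-arginine: tcacgtTGAt
glycine-phenylalanine: ggtttcTAGc
The authors' deposited table put these 6 between -0.39 and 0.06, and none passed its adjusted p of 0.05 (from 0.499 to 0.993). Their standard errors ran from 0.38 to 0.94. The upper ends of their 95% intervals ran from 0.55 to 1.32 for 5 of them, below the median of 1.69 over all stop variants, and reached 1.85 for tcacgtTGAt. Among the 6 lowest, tctggtTAAg also had glycine as last residue. Both sets of 6 are the ends of a long list of variants, and they are given as descriptions.

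Depth decides how much of this spread is context. Mean normalized counts summed to 31034000 over the table, with a median of 246 per variant and a range of 6.73 to 49604. The median standard error of a response was 0.33 over all variants, 0.43 at mean counts of 100 to 200 and 0.12 at 1000 or more. At a mean count of 10 or more, the minimum used for every result below, the authors' deposited table called 24575 of 28964 stop variants higher under SMG1i (84.8%) and 3 lower, against 63.7% called higher over stop and TGG variants together. The calls by stop codon in the authors' deposited table were 85.1% for TAA, 82.9% for TAG and 86.5% for TGA. Among TGG variants the authors' deposited table called 420 of 10272 higher (4.09%) and 414 lower (4.03%).

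With deep coverage the stop variants formed a single positive band. All 5574 stop variants at mean counts from 1000 upward had a positive response that passed the adjusted p of 0.05 in the authors' deposited table, from 0.24 to 2.87 with a median of 1.67, and 26 of them lay below 1. The ends of this deep set were chosen after their values were seen, and they are shown because their errors are small enough to read single windows.
proline-threonine: ccaaccTGAg
proline-threonine: ccgactTGAc
leucine-threonine: ctgactTAAc
isoleucine-arginine: attcgtTAGa
histidine-alanine: cacgctTGAg
serine-tyrosine: tcatacTAGc
cysteine-leucine: tgtcttTAAt
arginine-valine: cgcgtcTAAa
The authors' deposited table gave 2.87 ± 0.13 for ccaaccTGAg, 2.74 ± 0.12 for ccgactTGAc, 2.72 ± 0.14 for ctgactTAAc and 2.72 ± 0.15 for attcgtTAGa. Threonine was the last residue in 3 of these 4, and in 2079 of 28964 stop variants at a mean count of 10 or more. The next windows down, almost level with the fourth, ended in serine (acttcaTGAc, 2.71 ± 0.16) and glycine (gtagggTAAa, 2.71 ± 0.16). At the low end the authors' deposited table gave 0.24 ± 0.11 for cacgctTGAg, 0.37 ± 0.12 for tcatacTAGc, 0.65 ± 0.09 for tgtcttTAAt and 0.67 ± 0.11 for cgcgtcTAAa. The lowest of them, with a histidine-alanine context before TGA, had 1.18 times as much RNA under SMG1i as under DMSO, against 7.29 times for the highest.

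Not every context was represented. Of 65536 possible windows 41955 were listed (64.0%), and the share followed base composition. Windows with C at a random position were listed at 79.6% to 81.2%, those with T at 67.2% to 69.5%, those with G at 53.3% to 56.6% and those with A at 51.3% to 53.3%, depending on the position. The next base followed the same order, with 78.0% for C, 67.4% for T, 57.5% for G and 53.1% for A. Purine-rich contexts, which include the codons of lysine and glutamate, were therefore thin. Of 4096 possible sets of 6 random bases, 40 had no listed window, and 29 of these 40 held 5 or 6 A or G, out of 448 such sets. The 5 sets absent from both reporter tables all held the bases ACGTC, which 8 sets can hold, and the other 3 of the 8 had 12, 13 and 15 listed windows of 16. This was seen after the tables were examined, and its cause was not tested.

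The last codon carried the largest share of the context differences. In a linear model with penultimate codon, last codon, stop codon and next base, 16 of 61 last codons lay above the mean of all codons at an adjusted p under 0.05 (26.2%) and 21 lay below it (34.4%). Errors were clustered by the 6 random bases, which up to 12 stop variants share. All 4 glycine codons and all 4 threonine codons were higher. Glycine, the smallest residue, ranged from 0.36 ± 0.04 for GGT to 0.45 ± 0.03 (SE) for GGC. Threonine, a beta-branched residue with a hydroxyl group, ranged from 0.31 ± 0.03 for ACA to 0.38 ± 0.03 for ACG. At the low end tyrosine, a large aromatic residue, was lower by 0.33 ± 0.03 with TAT and by 0.28 ± 0.03 with TAC. The spread between last codons was an SD of 0.19, and in TGG variants, where the same position is followed by tryptophan, it was 0.05. There 0 of 61 codons passed in either direction, with 6 at an unadjusted p under 0.05. When each variant was weighted by its deposited error, 5 TGG codons were higher and 2 lower, against 19 and 24 with a stop codon.

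Grouped by chemistry, the last codons fell on both sides. Of the 14 codons for the small residues glycine, alanine and serine, 7 were higher and 0 lower, with a median effect of 0.07 against -0.01 over all 61 codons. These were the 4 glycine codons and 3 of the 6 serine codons, and no alanine codon was called. Of the 10 codons for the hydroxyl residues serine and threonine 7 were higher, and the median was 0.11. The 5 aromatic codons had 4 lower and a median of -0.26, and tryptophan, the remaining one, had an effect of -0.05 ± 0.04. All 4 amide codons (asparagine, glutamine) were lower, with a median of -0.18, as were all 3 sulfur codons (cysteine, methionine), with a median of -0.19. The 6 leucine codons had 5 lower. The basic residues had 2 of 10 codons higher and 3 lower, shares near the 26.2% and 34.4% over all last codons. This list was mixed, with both histidine codons lower (mean effect -0.23), 2 arginine codons higher and 1 lower, and no lysine codon called. Of the beta-branched codons the 4 of threonine were higher and 2 of the other 7 were lower. The lists overlap in serine and threonine, and their medians in TGG variants stayed between -0.06 and 0.02.

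Synonymous codons, which place the same amino acid on a different tRNA or wobble pair, differed by less. Of 59 codons with a synonym, 10 (16.9%) differed from the mean of their amino acid as last codon. Leucine TTA was the clearest, lower than the leucine mean by 0.17 ± 0.03 (adjusted p = 2.58e-09), whereas leucine CTG was higher by 0.11 ± 0.02 (adjusted p = 2.61e-05). Arginine divided in the same manner. AGG was lower than the arginine mean by 0.17 ± 0.04 (adjusted p = 0.00115), CGT was higher by 0.11 ± 0.03 and CGC by 0.10 ± 0.02. The remaining calls were CTC, GCG, TCG and CCG above, by 0.05, 0.07, 0.05 and 0.04, and valine GTA, lower by 0.09 ± 0.03. The GTA, GCG and TCG calls were lost with error weights (adjusted p = 0.472, 0.237 and 0.0723), and all but TTA, CGT and CGC were lost after subtraction of the TGG window with the same flanks. The SD of synonymous differences was 0.05, against 0.19 for all last codons.

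The penultimate codon moved the response less, and other residues led. Of 61 penultimate codons 14 were higher (23.0%) and 14 lower (23.0%), with an SD of 0.08 between codons. Valine, a beta-branched aliphatic residue, was highest with GTA at 0.18 ± 0.04, and its other codons ran from 0.11 to 0.15. Arginine, a basic residue, was lowest. Its AGA codon was lower by 0.18 ± 0.05, CGC was lower by 0.17 ± 0.02, and AGG alone of the 6 did not pass at equal weights (-0.09 ± 0.04, adjusted p = 0.0945). With error weights AGG was lower by 0.14 ± 0.04 and passed (adjusted p = 0.000547). By list, 7 of 11 beta-branched and 4 of 4 proline codons were higher, while 7 of 10 basic and 4 of 10 hydroxyl codons were lower. No threonine or lysine codon was called in this position. After subtraction of matched TGG windows the effect of GTA was -0.01 and that of AGG 0.09, and the penultimate calls fell to 6 higher and 7 lower. In TGG variants no penultimate codon passed, with 6 at an unadjusted p under 0.05. No penultimate codon differed from its synonyms at equal weights, with 4 of 59 at an unadjusted p under 0.05 and 3 called with error weights.

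The same residue often had a different effect in the 2 places. In the additive model 15 of 20 amino acids (75.0%) differed between last and penultimate position. Tyrosine had -0.31 as last residue and 0.09 as penultimate residue, a difference of -0.40 ± 0.03 (adjusted p = 2.29e-46) and the largest of the 20 at equal weights. With error weights its difference was -0.32 ± 0.02, smaller in size than those of threonine (0.35) and glycine (0.34). Its penultimate effect was 0.04 there, and neither penultimate tyrosine codon passed (adjusted p = 0.149 for TAC and 0.0564 for TAT). Glycine had 0.41 as last and 0.05 as penultimate residue, and threonine had 0.36 and 0.02. Valine went the other way, with 0.01 as last and 0.15 as penultimate residue (difference -0.14 ± 0.02, adjusted p = 8.67e-10). Arginine was near the mean as last residue, 0.01, and lower by 0.15 as penultimate residue. Phenylalanine was lower by 0.25 as last residue and had -0.01 as penultimate residue. Alanine, aspartate, glutamate, lysine and tryptophan did not pass, and for glutamate and lysine the standard error of the difference was 0.05. With error weights alanine and tryptophan passed as well. Over the 20 amino acids the effects in the 2 positions had a Pearson r of 0.21 and a Spearman rho of 0.29, a description of points that share the same libraries and variants.

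Stop codon and next base combined almost additively. Mean responses were 1.74, 1.66, 1.69 and 1.68 for TAA before A, C, G and T (SE 0.01 each), and 1.70, 1.61, 1.60 and 1.64 for TAG. TGA gave 1.89, 1.80, 1.85 and 1.84. TGA was thus highest before every next base, and TGG windows stayed between -0.03 and -0.00. Their error-weighted means ran from -0.028 before A to 0.021 before C. TGA before A was the highest of the 12 combinations. The lowest were TAG before G and TAG before C, whose means differed by less than their errors and changed order in the error-weighted means. A departure from additivity was tested for each combination. TAG before G was lower than the sum of its parts by 0.028 ± 0.009 (adjusted p = 0.0202), the only one of 12 (8.33%) to pass at equal weights. Its departure had the same sign after subtraction of TGG windows and did not pass there (adjusted p = 0.102). The joint test over all combinations did not pass (adjusted p = 0.127). With error weights 7 of 12 passed (58.3%) and the joint test did too (adjusted p = 2.33e-12), with departures from -0.035 for TAG before G to 0.028 for TAA before G.

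In matched windows the difference between TAA and TAG was largest before G. TAA exceeded TAG by 0.11 before G (95% interval 0.07 to 0.15, 1664 matched pairs), by 0.05 before A, by 0.04 before C and by 0.02 before T, where the interval ran from -0.02 to 0.05. TGA exceeded TAA by 0.13 to 0.15 before each of the 4 next bases. It exceeded TAG by 0.18 before C and by 0.23 before G. Against the other next bases with the same codons and stop, A raised the response by 0.08 ± 0.01 and C lay lower by 0.05 ± 0.01. G was below the others after TAG, by 0.05 ± 0.02, and 0.02 ± 0.02 above them after TAA and after TGA, where the intervals included 0. In TGG windows T lay above the other next bases by 0.028 ± 0.013 (95% interval 0.002 to 0.053), and the intervals of A, C and G included 0.

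The order of last residues was nearly the same before each stop codon. Glycine was highest with 2.09 ± 0.03 before TAA, 2.04 ± 0.04 before TAG and 2.26 ± 0.03 before TGA, and threonine followed with 2.04, 1.98 and 2.24. Those neighbours did not differ beyond their spread in TAA, TAG or TGA windows. Tyrosine was lowest with 1.40 ± 0.03, 1.38 ± 0.03 and 1.48 ± 0.03. Before TAG glutamine, with 1.39 ± 0.03, lay within the error of tyrosine and was lowest by the error-weighted mean (1.389 against 1.392). The middle of the order was crowded: before TAA, valine, lysine, arginine, glutamate and aspartate lay between 1.68 and 1.73. The range from tyrosine to glycine was widest before TGA.

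Leucine had the only called departures of last residue with stop codon at equal weights. Its mean was 1.60 ± 0.02 before TAA, 1.59 ± 0.02 before TAG and 1.69 ± 0.02 before TGA, so the extra response of TGA was smaller than for most residues. The leucine departure was -0.059 ± 0.013 with TGA (adjusted p = 0.000874) and 0.053 ± 0.014 with TAG (adjusted p = 0.00481), the only 2 of 60 combinations (3.33%) to pass at equal weights. The joint test over the 60 combinations did not pass at equal weights (adjusted p = 0.0558) and passed with error weights (adjusted p = 2.19e-15). With TGA it kept the call after subtraction of TGG windows, and with TAG it did not (adjusted p = 0.165). In matched windows TGA exceeded TAA by 0.10 ± 0.03 after leucine and by 0.20 ± 0.04 after arginine. With error weights 8 of 60 passed (13.3%). They included phenylalanine and tyrosine, lower with TGA by 0.053 ± 0.010 and 0.041 ± 0.015, and arginine and threonine, above with TGA by 0.039 ± 0.013 and 0.036 ± 0.013. Cysteine and glutamine, both low as last residues, had departures with TGA of 0.00 ± 0.02 and -0.00 ± 0.02 in that fit, and neither passed.

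The next base did not change the order of residues detectably. Of 80 combinations of last residue and next base 0 passed at equal weights and 0 with error weights, with 5 at an unadjusted p under 0.05 in each fit. Glycine ranged from 2.10 ± 0.04 before a stop codon followed by T to 2.16 ± 0.03 with C, and tyrosine from 1.36 ± 0.03 with C to 1.48 ± 0.04 with G. Glycine stayed above tyrosine with each next base. Of 80 combinations of penultimate residue and next base 0 passed in either fit, with 3 and 1 at an unadjusted p under 0.05. Penultimate residue and stop codon gave 0 of 60 at equal weights, with 3 at an unadjusted p under 0.05, and 1 above (1.67%) and 2 below (3.33%) with error weights. All 3 involved TGA, with proline higher than the sum by 0.033 ± 0.007 and arginine and glutamine lower than it by 0.037 ± 0.011 and 0.043 ± 0.014.

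Called departures of residue pairs were larger than those that involve stop codon or next base. Most pairs hold fewer windows, where a call needs a larger departure. The pair means given first also hold the effects of both positions. Over the 309 amino acid pairs with 20 or more stop variants, written penultimate-last, the highest mean was 2.47 ± 0.11 (41 variants) for tyrosine-glycine, followed by valine-threonine with 2.43 ± 0.07, isoleucine-glycine with 2.43 ± 0.14, glycine-glycine with 2.30 ± 0.10 and isoleucine-threonine with 2.29 ± 0.10. The lowest were glutamine-cysteine with 1.22 ± 0.10 (37 variants), histidine-cysteine with 1.23 ± 0.09, isoleucine-tyrosine with 1.26 ± 0.12 and arginine-tryptophan with 1.26 ± 0.11. The ends differed 2.37-fold in the ratio of RNA under SMG1i to DMSO. Isoleucine appeared at both ends, with glycine or threonine after it at the top and with tyrosine after it at the bottom. The neighbours in these orders did not differ beyond their errors.

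A pair can exceed or fall short of the sum of its codons. At equal weights 12 of 400 pairs departed from that sum (3.00%), 6 above and 6 below, with 49 at an unadjusted p under 0.05, and 9 of the 12 had 20 or more variants. A fit that weights codon pairs by their deposited errors plus the spread between codon pairs, chosen after the data were seen, called 23 pairs (5.75%), 10 above and 13 below. The fits shared 7 calls with the same sign. These were glycine-alanine, leucine-threonine, leucine-arginine and valine-threonine above, and arginine-threonine, proline-glutamine and serine-arginine below. The equal-weight calls of valine-tyrosine (-0.30) and valine-glycine (-0.29) were lost in the error-weighted fit, where they stood at -0.00 (adjusted p = 0.981) and -0.13 (adjusted p = 0.275). After subtraction of matched TGG windows none of the 7 shared calls passed (adjusted p from 0.527 to 0.938), with each sign as before.

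Threonine as last residue was called in 5 pairs. In the error-weighted fit it lay above the sum after isoleucine by 0.30 ± 0.06 (adjusted p = 1.39e-05), after leucine by 0.19 ± 0.03 and after valine by 0.17 ± 0.05 (adjusted p = 0.0093). It lay below the sum after arginine by 0.24 ± 0.04 (adjusted p = 5.62e-08) and after asparagine by 0.23 ± 0.06. Valine-threonine averaged 2.43 and arginine-threonine 1.73 ± 0.04, although both end in the same residue. These means hold the penultimate effects of valine (0.15) and arginine (-0.15) as well as the departures.

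Arginine as last residue was called in 6 pairs, 5 of them below the sum. It lay below after glycine and cysteine by 0.19 each, after threonine and serine by 0.15 each and after alanine by 0.13, and above after leucine by 0.18 ± 0.03. In windows with the CGN arginine codons the mean was 1.90 ± 0.03 after leucine and 1.59 ± 0.04 after serine, and in those with AGA or AGG it was 1.71 ± 0.12 and 1.52 ± 0.08. The order after these 2 residues was the same in both codon boxes by point estimate. With AGA or AGG the errors overlapped, over 55 and 61 windows. These means also hold the penultimate effects of leucine (-0.01) and serine (-0.06).

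Other called pairs followed no single residue. Glycine-alanine stood above the sum by 0.25 ± 0.05, tyrosine-glycine by 0.28 ± 0.08, alanine-alanine by 0.15 ± 0.04, arginine-histidine by 0.14 ± 0.05, proline-serine by 0.11 ± 0.03 and proline-proline by 0.10 ± 0.03. Below it were isoleucine-tyrosine by 0.28 ± 0.08, proline-glutamine by 0.23 ± 0.05, isoleucine-proline by 0.18 ± 0.04, valine-valine by 0.16 ± 0.05 and leucine-serine by 0.10 ± 0.03. One further called pair had fewer than 20 variants and is not described. Repeated residues were on both sides, with proline-proline and alanine-alanine above and valine-valine below. Of the 23 called pairs 21 had the same sign in TAA, TAG and TGA windows fitted apart. The pairs were called on these same windows, so the shared sign follows in part from that choice and is no separate test. In TGG variants 13 of the 23 had the same sign and 0 were called. In the same fit the TGG variants themselves had 2 other pairs called above, isoleucine-glutamine and isoleucine-glycine.

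At the level of codon pairs 2117 of 3662 had 8 or more of 12 stop windows, and 868 had all 12. Their means had an SD of 0.27. Histidine CAT with glycine GGC, shown at the start, was highest at 2.74 ± 0.24, but its error-weighted mean was 2.21, because the windows with few counts were the highest ones. Valine-threonine pairs came next. GTA with ACC had 2.73 ± 0.27 (2.47 weighted), and GTA with ACT had 2.69 ± 0.23 (2.71 weighted). Tyrosine TAC with glycine GGG, which includes the printed window tacgggTGAc, had 2.62 ± 0.28 (2.66 weighted), and tryptophan TGG with serine TCT had 2.57 ± 0.30 (1.98 weighted). The lowest was arginine CGA with tryptophan TGG, at 0.90 ± 0.15 (1.08 weighted). Arginine CGG with tyrosine TAT had 0.93 ± 0.36, valine GTC with TAT 0.95 ± 0.28, glycine GGT with histidine CAT 0.97 ± 0.19 and isoleucine ATT with TAT 1.02 ± 0.39. Tyrosine TAT was last in 3 of the 5 lowest codon pairs, whose weighted means ran from 1.08 to 1.35.

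The share of the differences beyond error that was additive depended on depth. It was 46.0% at the minimum of 10, 59.9% at 200 and 67.2% at 1000 in stop variants, against 1.48%, 2.74% and 7.81% in TGG variants. The variance left beyond error and the additive part was 0.051, 0.026 and 0.015 in stop variants. In TGG variants, which have no stop codon, it was 0.047, 0.025 and 0.018. What this remainder holds was not tested. In stop variants the 4 positions together accounted for 12.5% of the variance of the response (adjusted R squared), with deposited error making up 72.9% of it. At a mean count of 200 or more the positions accounted for 35.3%, and at 1000 or more for 53.1%, where error made up 21.0%. In that deep set the last codon alone accounted for 33.9%, the penultimate codon for 10.5%, the stop codon for 7.53% and the next base for 0.913%. Adding amino acid pairs raised the share from 53.1% to 58.8%, adding last residue by stop codon raised it to 53.8% and adding stop codon by next base to 53.2%. Pairs therefore added more than the other interactions, although they also use many more terms. In TGG variants of that depth the positions accounted for 4.85%, and adding pairs raised this to 9.28%, so that pairs added a share without a stop codon too.

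Codon effects estimated apart in TAA, TAG and TGA windows, which share libraries, the 6 random bases and the next bases, gave a Pearson r of 0.95 to 0.98 over 61 last codons and 0.81 to 0.90 over 61 penultimate codons. Amino acid pair departures gave 0.44 between TAA and TAG (264 pairs), 0.39 between TAG and TGA (262 pairs) and 0.30 between TAA and TGA (262 pairs). With TGG windows last codon effects gave 0.05 to 0.13. The correlation between stop codons was thus greatest for the last codon and least for pairs. Pair departures rest on fewer windows each, and error of estimation lowers a correlation. These values therefore cannot rank how far each kind of effect is shared between stop codons.

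The level under each treatment was derived from the deposited mean count and ratio, relative to the TGG window with the same flanks. Over 24075 matched windows, glycine windows stood at 32.3% of TGG under DMSO and at 135% under SMG1i, and threonine windows at 24.6% and 110%. Tyrosine windows stood at 40.3% and 111%, and phenylalanine windows at 43.2% and 128%. Threonine was the lowest of 20 residues under DMSO. Aspartate (30.0%), proline (31.1%) and serine (31.3%) also stood below glycine there. Glutamate was the highest of 20 under both treatments, at 54.2% and 178%, from 203 windows with a standard error of 0.27 (log2) under each. Its 2 codons differed, with GAG at 76.2% and 262% (100 windows) and GAA at 38.9% and 122% (103 windows). All matched windows together stood at 35.6% and 118%. If the deposited ratio were the other way round, the levels under DMSO and SMG1i would be exchanged, and the lowest of 20 under DMSO would be aspartate, at 102%. The spread between residues was an SD of 0.25 (log2) under DMSO and 0.18 under SMG1i, with a median standard error of 0.13 and 0.12. Over the 20 residues the DMSO level and the response had a Pearson r of -0.71, and the SMG1i level and the response 0.02. The response is computed from the same values, and the levels also hold how often each window was integrated, which was not measured, so these are descriptions only.

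The EJC-enhanced reporter, with windows of the same design, had smaller codon effects. Its stop variants had a mean response of 2.29, against 1.72 here, and a median mean count of 143, against 245 here. Their mean squared standard error was 0.44, against 0.28 here. The part of depth and error in the number of calls was not tested. There 1 last codon was higher and 1 lower at equal weights, and 1 and 6 with error weights, and the SD between last codons was 0.05 in each fit. Of its penultimate codons 4 were higher and 1 lower at equal weights, and 6 and 5 with error weights. The reporters were in separate libraries, and the tests of their differences take the spread between sequences only, so a difference between libraries cannot be told apart from one between reporters. The difference between reporters passed for 31 of 61 last codons (50.8%) and 10 of 61 penultimate codons (16.4%). GGG had 0.42 here and -0.09 there (difference adjusted p = 5.06e-16), and TAT had -0.33 here and 0.01 there. TGA exceeded the mean of the stop codons by 0.12 here and by 0.01 there (difference 0.11, adjusted p = 2.40e-46). The departure of leucine with TGA was larger here by 0.051 in size (adjusted p = 0.0171, error weights). Of 400 pair departures 0 differed between the reporters in the error-weighted fit, with 44 at an unadjusted p under 0.05 and a lowest adjusted p of 0.0651. Valine-threonine was the only pair called in the EJC-enhanced reporter, at 0.25, and it stood at 0.17 here.

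Windows with further features were counted from lists. Stop variants with a stop codon also in the penultimate place, where an upstream terminator comes before the designed one, averaged 2.17 ± 0.03 (894 variants), and those with one in the last place 1.85 ± 0.02 (945 variants), against 1.72 over all. An out-of-frame stop codon in the +1 frame went with 1.87 ± 0.03 and one in the +2 frame with 1.73 ± 0.02. Windows with an in-frame ATG averaged 1.62 ± 0.03. GC-rich windows, with 5 or 6 G or C, averaged 1.80 and AT-rich windows 1.61, and their median mean counts were 423 and 137, whose part in the difference was not tested. Windows with the splice donor-like GTAAG or GTGAG averaged 1.79 ± 0.02 and those with the poly(A) signal-like AATAAA or ATTAAA 1.58 ± 0.05. These letters overlap the stop codons and the last codons, and no test separates the list from its codons.

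A few control windows without a stop codon stood apart. Of 2646 TGG variants at mean counts from 1000 upward, 10 responded by more than 1, and 3 are printed because they are the highest, chosen after their values were seen.
isoleucine-glutamine: atacaaTGGc
leucine-alanine: ttggctTGGc
isoleucine-glycine: attggcTGGc
The authors' deposited table gave atacaaTGGc 2.29 ± 0.11, ttggctTGGc 1.62 ± 0.13 and attggcTGGc 1.41 ± 0.06, the last at a mean count of 9539. All 10 passed the adjusted p of 0.05 in the authors' deposited table. The same codons with TGG and another next base ran from -1.09 to 0.93. In the EJC-enhanced reporter, in the authors' deposited table, the same 10 windows ran from -0.08 to 1.67. Isoleucine-glutamine and isoleucine-glycine are also the pairs called among TGG variants, and each holds one of these windows. The cause was not tested.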

How the data were processed

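HEK293T cells with an integrated reporter library were compared after 24 hours of DMSO or 0.5 µM SMG1i, with 3 libraries a group. Per the file headers, the deposited table gives for each variant a mean normalized count (a signal), the log2 fold change and its standard error, the Wald score, and p-values with and without adjustment. DESeq2 and DESeq were used by the authors, per the submitters' processing notes, in versions not given in the sources used here. How reads were assigned to variants, and the genomic site of integration, are likewise not given in those sources. Deposited p-values measure only the spread between these libraries, which may be technical, and p-values computed here measure the spread between sequences.

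The deposited log2 fold change was turned in sign. Variants with a mean count under 10 (215) were left out, and the models used windows with sense codons in both places. Ordinary least squares with deviation coding was fitted in Python 3.11.15 with numpy 2.4.6, scipy 1.17.1 and pandas 2.3.3, and Wald tests were adjusted by Benjamini-Hochberg within each family. Errors of model effects over windows were clustered by the 6 random bases. Errors of plain mean responses, by residue, pair or list, were taken over single windows without that clustering. Each amino acid pair was added alone to the additive fit over codon pair means, because the joint fit could not be fitted to TGG variants. The comparison of the 2 positions was added after the data were seen. The scripts were tested on simulated data.

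The members and lists were chosen with earlier results of these data known. Named were the 12 stop and next base combinations, extremes of residues, pairs (20 or more variants, a limit set after the data were seen) and codon pairs (8 or more), codons passing a test, 6 highest and 6 lowest single variants at a mean count of 100 or more, and glycine and tyrosine throughout.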

Additional observations from a re-analysis of the deposited data

Results flagged for a closer look

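The 2 reporters differed in the size of context effects, by a Wald test of each difference over sequences, with Benjamini-Hochberg adjustment and no spread between libraries. Effects differed for 31 of 61 last codons and for 10 of 61 penultimate codons. The effect of TGA against the mean of the stop codons was higher in the EJC-independent reporter by 0.11, and the difference was -0.054 for C as the next base (-0.04 against 0.02). With error weights, the departure with TGA differed by -0.051 for leucine (-0.06 against -0.01) and by -0.074 for phenylalanine (-0.05 against 0.02). Stop variants that also hold a stop codon in the penultimate place, which enter no model, had a mean response of 2.17 against 1.72 over all stop variants. TGG variants as a whole averaged -0.02.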

How the results depend on the processing

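No paired analysis was possible because the table holds 1 comparison per variant and no value per library, and for the same reason no replicate could be left out. The alternatives were a mean count minimum of 50 or none, error weights, subtraction of the matched TGG window, errors not clustered and, chosen after seeing the data, a minimum of 200, all pairs fitted together and the error-weighted pair fit. Of 252 alternative values of 42 named effects, 202 kept direction and side of the threshold, 42 lost the call, 3 gained it and 5 reversed, and 20 of the 42 losses came with TGG subtraction. Reversed were TCG against its synonyms (-0.028), penultimate GTA (-0.013) and penultimate AGG (0.091) with TGG subtraction, and valine-tyrosine with error weights (0.023) and at a minimum of 200 (0.00170). Stop codon by next base calls moved from 1 to 6 at a minimum of 50, 7 with error weights and 0 with TGG subtraction. Last residue by stop codon calls moved from 2 to 8 with error weights and 1 with TGG subtraction, and penultimate residue by stop codon calls from 0 to 1 at a minimum of 50 and 3 with error weights. Synonymous calls moved from 10 to 17 (error weights) and 3 (TGG subtraction) for last codons, and from 0 to 3, 5 and, with errors not clustered, 1 for penultimate codons. Penultimate codon calls moved from 14 higher and 14 lower to 6 and 7 with TGG subtraction. Pair calls moved from 6 above and 6 below to 24 and 23 with plain error weights, which hold no term for the spread between codon pairs, to 10 and 13 with that term, and to 1 and 0 with TGG subtraction. The spread of derived levels was 0.29 under DMSO and 0.24 under SMG1i with error weights. The additive share of variance moved from 12.5% to 35.3% at a minimum of 200 and 53.1% at 1000. The causes were not tested beyond what each setting does: TGG subtraction uses fewer windows and adds a further error.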

Other observations

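The tables give no counts per library, so no interval for counting error could be computed, and a response near 0 in a thin window is not evidence that the window escapes decay. Purine-rich contexts are under-represented, which limits glutamate and lysine. The called stop codon and next base departures, 0.012 to 0.035 in size with error weights, are smaller than the median error of a deep variant (0.12) and rest on averages over many windows. Error-weighted fits give the most abundant windows more influence, and abundance follows base composition. Amino acid pair calls depend on the weighting more than codon calls do, and pairs with fewer than 20 stop variants are not described.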
